A study of Homo sapiens with 118 samples.

Results

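The genes described here encode 38 enzymes of hepatic amino acid breakdown. They were taken as a list of symbols and matched to the count table by the part of each row name before its probe number, and all 38 had a row among the 19470 symbols of the table. HepaRG, an established human liver cell line used in its differentiated state, was exposed for 72 h, with daily renewal, to 1 of 8 histone deacetylase inhibitors at 5 concentrations called C1 (lowest) to C5 (highest). The range from C1 to C5 was 0.0417 to 0.86 µM for apicidin, 0.177 to 3.9 µM for mocetinostat, 0.00147 to 0.084 µM for panobinostat, 4.94 to 94.5 µM for scriptaid, 1.14 to 44 µM for tacedinaline, 0.0188 to 1.52 µM for trichostatin A and 0.405 to 23.5 µM for vorinostat. Valproic acid doses are labelled 100.5 to 3038 without a unit, and the unit is not settled by the sources. Each of 38 groups held 3 libraries, 1 from each of 3 HepaRG batches, and panobinostat C3 and trichostatin A C4 held 2, without batch 3. Libraries were made with TempO-Seq, in which pairs of probes are ligated on their target transcript and counted after sequencing. Every group was exposed to an inhibitor, since solvent controls were not used here, and C1 of the same chemical was the reference in each comparison. The library names carry a letter, recorded here as the plate. It is E for scriptaid, tacedinaline and vorinostat, and H for the other chemicals. All libraries of a chemical carry the same letter, so plate and chemical cannot be told apart. Doses also differed between chemicals, so their values are given side by side and no chemical is compared with another.

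The liver is the main site at which surplus amino acids are dismantled. Aminotransferases or lyases remove the amino group of several of them, at the first step or later. Separate enzyme chains break down tyrosine, tryptophan, histidine, methionine and the branched-chain amino acids, while glyoxylate from hydroxyproline and glycine is detoxified by transamination. Hepatocytes express many of these enzymes as part of their differentiated state. Histone deacetylase inhibitors block the enzymes that take acetyl marks off histones. Among those tested, panobinostat, scriptaid, trichostatin A and vorinostat are hydroxamic acids, mocetinostat and tacedinaline are benzamides, apicidin is a cyclic tetrapeptide and valproic acid is a branched short-chain fatty acid.

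Total counts lay between 1061359 and 5250260 per library. The depth of vorinostat was lowest at C5, with 1061359 to 1879287 counts against 1785295 to 4134455 at C1. With scriptaid it was 1785844 to 3123879 at C5 against 3211351 to 4181109 at C1. With tacedinaline it was 1739105 to 2523787 at C5 against 1243102 to 4122567 at C1. Levels are given as CPM, counts scaled to a common library size after normalization by the trimmed mean of M values. The 10 hepatocyte markers, such as the albumin and transferrin genes, summed to between 45281 and 76829 CPM in the C1 libraries, apart from the library of trichostatin A C1 replicate 3 at 14717 CPM. Of 8 endothelial or immune markers at most 2 passed the count filter in any chemical. In bulk lysates, fewer hepatocyte-like cells and less RNA per cell cannot be told apart.

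Of the 38 genes, between 31 (vorinostat) and 33 passed the filter on low counts. The histidine pathway genes UROC1 and FTCD, the betaine methyltransferase gene BHMT and the ornithine aminotransferase gene OAT passed it in no chemical, and their probes reached at most 3, 11, 5 and 9 counts in any library. KMO passed in 2 chemicals, SDS in 3 and GNMT in 7. A gene was called when edgeR's quasi-likelihood test gave a Benjamini-Hochberg adjusted p under 0.05 over all features tested, with a fold change of at least 1.5.

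At C5, 15 to 24 of the 38 genes were called lower in each of 7 chemicals and 1 to 3 were called higher. With apicidin 20 of the 38 genes were lower and 3 higher than at C1, beside 15% of all features lower and 13.8% higher. With mocetinostat 19 were lower and 2 higher (15.7% and 14.8% of all features). With panobinostat 16 were lower and 1 higher (9.46% and 6.77%). With scriptaid 20 were lower and 2 higher (17% and 12.8%), and with tacedinaline 22 were lower and 1 higher (20.1% and 18.7%). Valproic acid gave 15 lower and 1 higher (6.22% and 4.84%), and 10 lower with 0 higher without batch 1. Vorinostat gave 24 lower and 1 higher (24.9% and 22.7%). In these 7 chemicals the share of the 38 genes that was lower exceeded the share of all features, and the share that was higher did not.

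Trichostatin A gave 0 calls in either direction at C5, beside 0.0154% of all features lower and 0% higher. By edgeR 2 of its genes had an unadjusted p under 0.05 with a lower level and 2 with a higher one, and DESeq2 also gave 0 calls. The library of trichostatin A C1 replicate 3 stood apart from its group, and without it 3 genes, HAO2, HPD and TDO2, were lower at C5. Without batch 3 in all groups 5 genes were lower, these and TAT and CTH. How many of all features were called once libraries were left out was not counted, so these counts stand without that share.

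**Figure D1:**
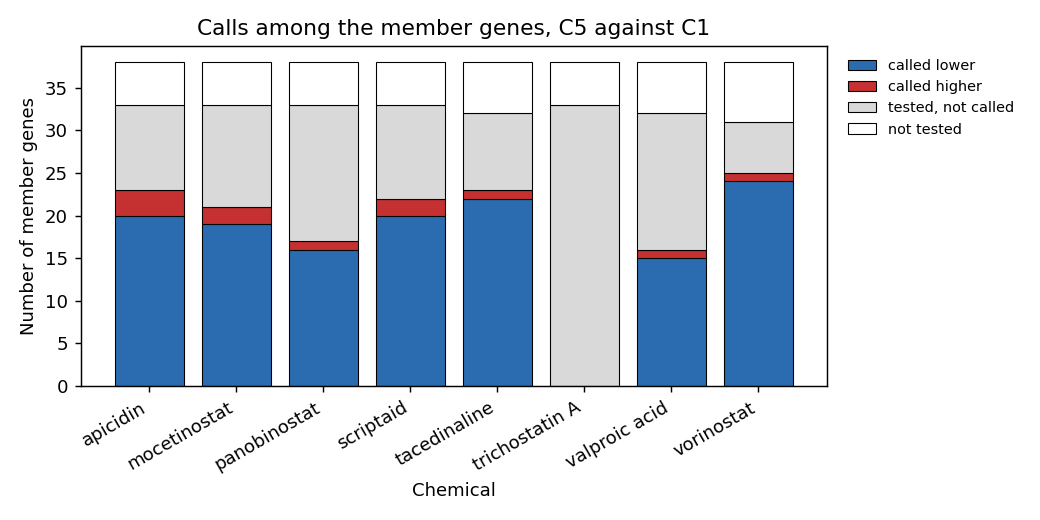
Stacked bars give, for each chemical on the horizontal axis, how many of the 38 genes were called lower, called higher, tested and not called, or not tested at C5 against C1. Trichostatin A has 0 calls lower, and every other chemical has 15 to 24.

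The median log2 change of the tested genes at C5 was -1.66 with apicidin, -2.80 with mocetinostat, -1.13 with panobinostat and -2.24 with scriptaid. It was -2.17 with tacedinaline, -0.09 with trichostatin A, -1.16 with valproic acid and -2.70 with vorinostat. The median over all features tested lay between -0.0018 and 0.0842 in the same comparisons. A gene with at most 3 counts in every C5 library of a chemical was treated as lying at the floor, and its change there is a bound. Between 1 and 7 tested genes of a chemical were at the floor at C5 in the 7 chemicals, and with them at their bound the medians lay between -0.96 (panobinostat) and -2.80 (mocetinostat).

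At C3, the middle concentration, fewer genes had changed. Apicidin gave 11 lower and 3 higher (8.39% and 6.94% of all features), or 9 lower and 0 higher without batch 3. Mocetinostat gave 12 lower and 1 higher (5.14% and 6.44%), or 6 lower and 0 higher without batch 2. Tacedinaline gave 13 lower and 0 higher (6.46% and 5.44%).

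The C3 counts of the other chemicals were smaller. Scriptaid gave 5 lower and 0 higher (0.876% and 0.461%), with 0 calls without batch 2 and 9 without batch 3. Valproic acid gave 5 lower and 0 higher (0.84% and 0.293%), with 1 call without batch 1 and 2 without batch 2. Vorinostat gave 7 lower and 1 higher (3.88% and 3.18%), and 5 lower with 0 higher without batch 1 or without batch 2. Panobinostat gave 0 calls (0% lower and 0.00763% higher), where 2 genes had an unadjusted p under 0.05 in each direction by edgeR and DESeq2 gave 0. Trichostatin A gave 0 calls (0% and 0%), with 1 gene at an unadjusted p under 0.05, which was higher, and 0 by DESeq2.

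**Figure D2:**
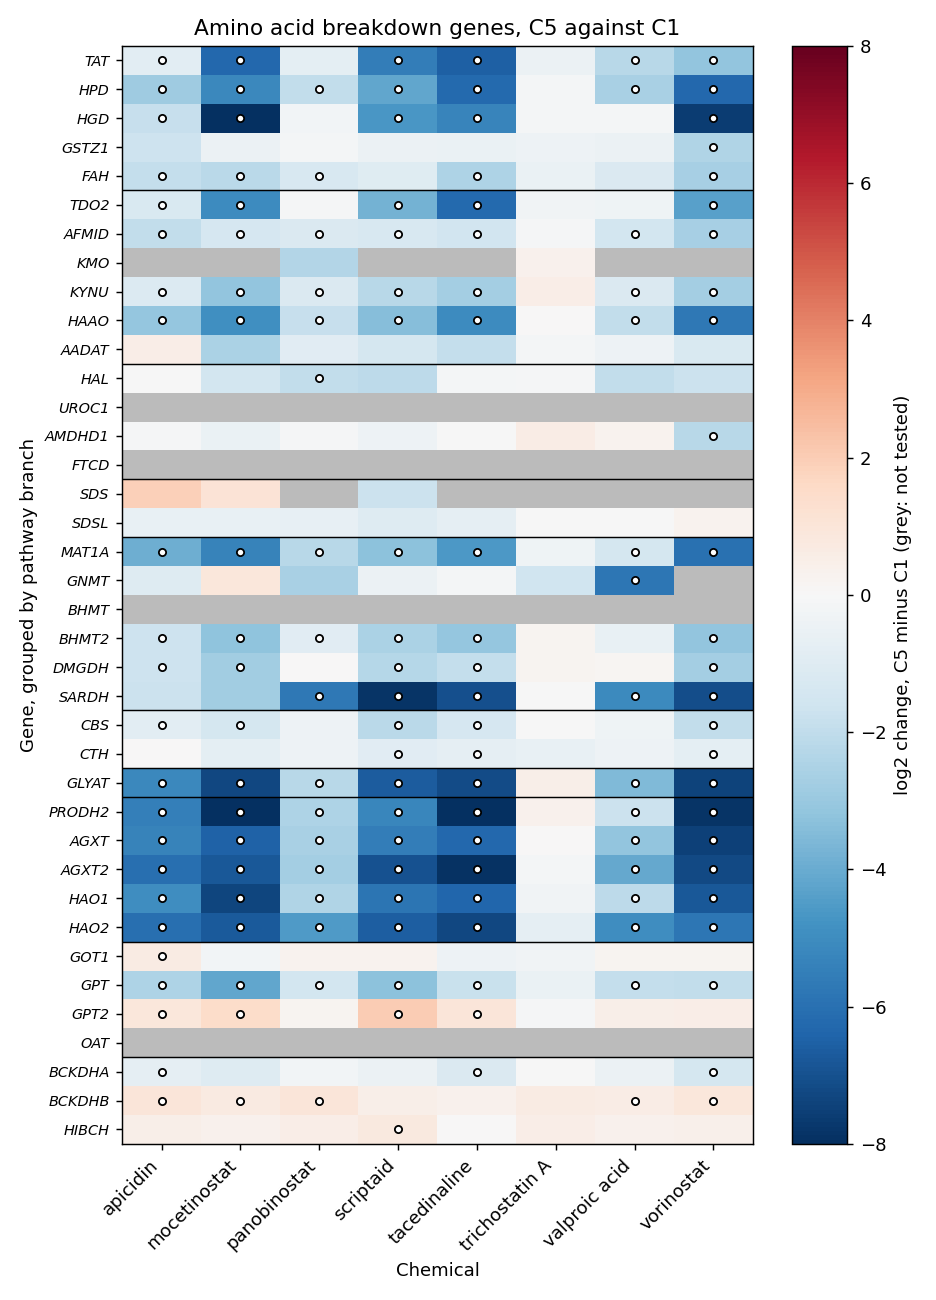
Colour gives the fitted log2 change at C5 against C1 for each gene (rows, grouped by pathway branch) and chemical (columns), white dots mark calls and grey marks genes not tested. The block of hydroxyproline, glyoxylate and 2-hydroxy acid genes is blue with a dot in every chemical except trichostatin A. BCKDHB is red throughout, and GPT2 is red except with trichostatin A, where its log2 change is -0.09. Values of genes at the floor are fitted values and not bounds, and values beyond the scale take its end colour.

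The summed level of the 38 genes gives 1 value for every library. It is weighted to the probes with most counts and does not repeat the comparison gene by gene. Over 23 C1 libraries the median was 641 CPM for AGXT, 591 CPM for HAO2 and 364 CPM for TDO2. With apicidin it was 4206, 3740 and 3595 CPM at C1 and 1969, 1858 and 2032 CPM at C5, so the groups did not overlap. With tacedinaline it was 4087, 4064 and 3622 CPM at C1 and 1111, 1205 and 1062 CPM at C5, which is 28.7% of the C1 mean. The groups were also separate in mocetinostat, panobinostat, scriptaid, valproic acid and vorinostat, where the C5 mean was 30.3%, 60.4%, 42.7%, 55.2% and 37.8% of the C1 mean. With trichostatin A the sum was 3804, 3721 and 1207 CPM at C1 and 3336, 2328 and 2917 CPM at C5, and the groups overlapped through replicate 3 of C1. With scriptaid C4 it was 1768, 1577 and 3075 CPM, and the third value, of batch 3, lay near the C1 level, while the hepatocyte marker sum was 14967 to 20348 CPM in these libraries against 48438 to 53665 CPM at C1.

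Hepatocyte markers were lower at C5 in the same 7 chemicals. Over all features in these chemicals, 6.22% (valproic acid) to 24.9% (vorinostat) were lower at C5, and 4.84% to 22.7% were higher. All 10 fell at C5 with mocetinostat, scriptaid, tacedinaline and vorinostat, 9 of 10 fell with apicidin, panobinostat and valproic acid, and 0 of 10 were called by edgeR with trichostatin A. Their summed level at C5 was 3791 to 5269 CPM with tacedinaline against 50629 to 67565 CPM at C1, and 24987 to 31963 CPM with panobinostat against 48553 to 57152 CPM. Of 9 biliary or progenitor markers, 4 or 5 were tested in each of the 7 chemicals, and 1 to 3 were higher and 0 lower at C5. With vorinostat 1 of 4 was higher, which is near the 22.7% of all features. Their sum stayed between 88.9 and 217.7 CPM at C5 in those chemicals, against 62.6 to 122.1 CPM at C1. Of 10 mesenchymal or stellate markers, 6 to 8 were tested in each of these 7 chemicals, and 2 to 4 were lower at C5 and 0 to 2 higher. Over all 8 chemicals ACTA2 and COL3A1 were lower in 7 and DCN in 6, while COL1A1 was higher in 6. The summed level of this list was 95.0 to 231.7 CPM at C5 and 161 to 240.3 CPM at C1 in the 7 chemicals. The part of these markers in the fall of the breakdown genes was not tested.

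**Figure D3:**
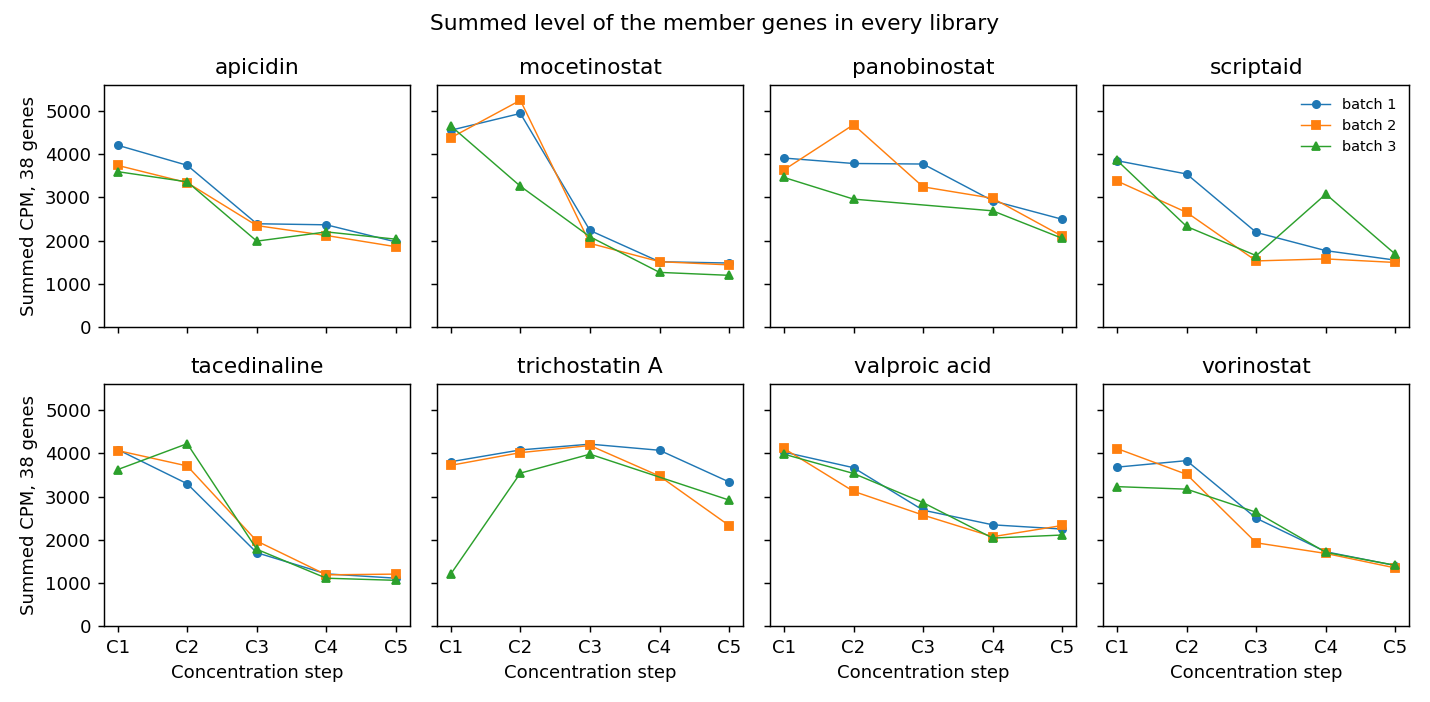
Each panel is 1 chemical, the horizontal axis gives the concentration step and the vertical axis the summed CPM of the 38 genes, with a symbol per HepaRG batch. The sum at C5 reaches at most 2493 CPM in any library of 7 chemicals, and trichostatin A C1 replicate 3 stands apart at 1207 CPM.

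Across the 7 chemicals other than trichostatin A, 12 genes were lower at C5 in every one: HPD, AFMID, KYNU, HAAO, MAT1A, GLYAT, PRODH2, AGXT, AGXT2, HAO1, HAO2 and GPT. With the replicate block there were 13, these and FAH. Of the other genes 2 were lower in 6 chemicals, 6 in 5, 2 in 3 and 4 in 1, and 12 were lower in none, 4 of these because they were never tested. How many of all features were lower in all 7 chemicals was not counted. In single chemicals 6.22% (valproic acid) to 24.9% (vorinostat) of all features were lower at C5. HPD, HAAO, GLYAT, AGXT, AGXT2, HAO1 and HAO2 kept the call in all 7 chemicals under every alternative tried. AFMID, KYNU, MAT1A, PRODH2 and GPT lost it in at least 1 chemical when a batch was left out. KYNU was lower in 4 chemicals without batch 1 and in 3 without batch 2, and GPT in 5 without any 1 batch. With all libraries in 1 fit, KYNU was lower in 4 chemicals and MAT1A, PRODH2 and GPT in 6 each. MAT1A was also lower in 6 with either other scaling, and its call with valproic acid was close to the threshold (edgeR adjusted p = 0.0499).

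The genes of hydroxyproline, glyoxylate and 2-hydroxy acid metabolism were lower in 35 of 35 tests of these 7 chemicals. These are 5 genes tested again in each chemical in the same 3 batches, so the tests are not independent. Over all features, 6.22% (valproic acid) to 24.9% (vorinostat) were lower in single chemicals. AGXT encodes the peroxisomal enzyme that turns glyoxylate into glycine. With vorinostat its probe read 632, 771 and 546 CPM at C1, 284, 107 and 329 CPM at C3, and 4.56, 2.62 and 3.91 CPM at C5. Each C5 library was below every C1 library. The log2 change was -7.50 ± 0.41 (SE back-calculated from the fit of all concentrations, n = 3 per group, edgeR adjusted p = 1.37e-16). With panobinostat the change was -2.58.

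AGXT2, a mitochondrial aminotransferase that also uses glyoxylate, was at the floor in 4 chemicals at C5. With tacedinaline it read 100.2, 82.0 and 68.8 CPM at C1, 6.52, 7.05 and 4.32 CPM at C3, and 0, 0.75 and 0 CPM at C5, so it was already low at the middle concentration. It was at least 61.0-fold lower at C5 (edgeR adjusted p = 5.86e-17). HAO1, the peroxisomal glycolate oxidase, was at least 42.4-fold lower with mocetinostat, where 3 C5 libraries held 1, 1 and 0 counts against 133, 149 and 154 at C1.

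HAO2 oxidises long-chain 2-hydroxy acids in peroxisomes, and its median log2 change over the 8 chemicals was -5.92 with no group at the floor. The fitted median of AGXT2 was -6.42, or -5.52 with its floor groups at their bound, so the order of these genes is not settled. It read 734, 591 and 694 CPM at C1 and 6.63, 6.32 and 5.92 CPM at C5 with mocetinostat. It read 694, 629 and 497 CPM at C1 and 39.5, 21.8 and 18.9 CPM at C5 with panobinostat, a change of -4.51. The groups did not overlap in either chemical. With trichostatin A, HAO2 read 679, 583 and 59.9 CPM at C1 and 330.1, 207 and 277 CPM at C5, so that all C5 libraries lay below the C1 libraries of batches 1 and 2 and above that of batch 3. PRODH2, which starts hydroxyproline breakdown, was at the floor in 5 chemicals, among them mocetinostat, where it read 30, 17 and 65 counts at C1 and 0 in each library at C5 (at least 11.2-fold lower). A second PRODH2 probe with fewer counts was tested in 6 chemicals and lower in 3.

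**Figure D4:**
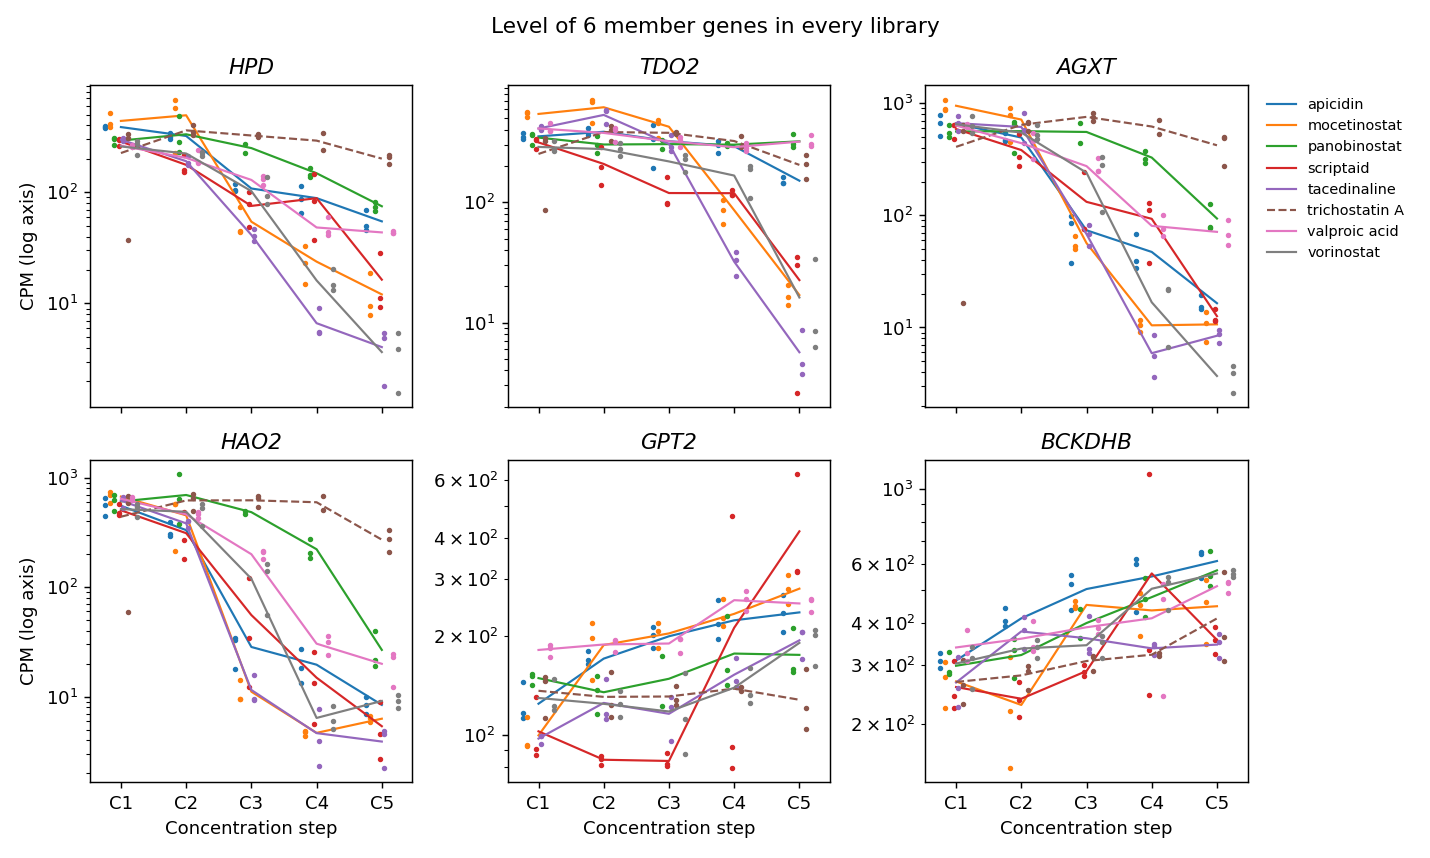
Points are single libraries and lines are group means of CPM (log axis) from C1 to C5 for HPD, TDO2, AGXT, HAO2, GPT2 and BCKDHB, with 1 colour per chemical and a dashed line for trichostatin A. HAO2 lies at 440.1 to 734 CPM at C1 and at 2.25 to 39.5 CPM at C5 in 7 chemicals, while BCKDHB does not go under 308 CPM at C5.

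The bases upstream of the starts of HAO2 and AGXT2 are shown because both genes fell far and hold almost no CpG dinucleotide there. Both stretches are the 250 bases before the start in RefSeq GRCh38.p14, at chr1:119368535-119368784 on the plus strand and chr5:35047950-35048199 on the minus strand, written 5′ to 3′ with CpG in capitals. HAO2 holds 0 CpG and AGXT2 holds 1.
HAO2: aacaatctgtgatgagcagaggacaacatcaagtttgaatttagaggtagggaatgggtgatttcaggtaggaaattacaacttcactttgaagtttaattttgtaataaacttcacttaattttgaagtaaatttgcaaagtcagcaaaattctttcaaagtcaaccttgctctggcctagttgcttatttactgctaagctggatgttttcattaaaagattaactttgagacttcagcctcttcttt
AGXT2: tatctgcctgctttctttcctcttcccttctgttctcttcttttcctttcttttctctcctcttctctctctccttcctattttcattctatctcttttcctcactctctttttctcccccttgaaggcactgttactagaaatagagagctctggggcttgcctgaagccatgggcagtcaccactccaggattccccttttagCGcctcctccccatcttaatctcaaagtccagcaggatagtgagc

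GLYAT joins glycine to benzoate and other acids in the mitochondrion and was lower in all 7 chemicals. With vorinostat it read 147, 208 and 122 CPM at C1, 60.1, 20.9 and 48.1 CPM at C3, and 0.91, 0.52 and 1.30 CPM at C5. It was at least 76.1-fold lower at C5 (edgeR adjusted p = 3.67e-14), and every C5 library was below every C1 library. With trichostatin A its log2 change was 0.49 ± 0.28 (edgeR adjusted p = 0.608), which was not called.

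In the tyrosine chain, TAT, HPD, HGD and FAH were lower in 5 to 7 chemicals each and GSTZ1 in 1. FAH was lower in 5 chemicals, and in 7 with the replicate block. HPD makes homogentisate. With vorinostat it read 270.5, 290.5 and 215 CPM at C1 and 5.47, 1.57 and 3.91 CPM at C5. The log2 change was -6.25 ± 0.31 (SE from the fit, n = 3 per group, edgeR adjusted p = 1.2e-17). The groups were far apart. TAT, the glucocorticoid-inducible aminotransferase that opens the chain, read 56.7, 66.0 and 96.1 CPM at C1 and 1.63, 0.38 and 0.45 CPM at C5 with tacedinaline, with 52.5 ± 9.03 CPM (SD, n = 3) at C3 between them (at least 53.2-fold lower, edgeR adjusted p = 1.56e-15). TAT was called lower at C3 in 0 chemicals, and HPD in 6. GSTZ1, the maleylacetoacetate isomerase, was called with vorinostat, where C5 libraries held 0, 0 and 4 counts against 9, 20 and 14 at C1 (log2 change -2.41 ± 0.94, edgeR adjusted p = 0.0308). Without batch 1 that adjusted p was 0.17, without batch 2 the probe did not pass the filter, and with all libraries in 1 fit it was 0.0556.

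In the tryptophan and kynurenine chain, AFMID, KYNU and HAAO were lower in 7 chemicals and TDO2 in 5. TDO2, the liver dioxygenase that opens the chain, read 432, 404 and 399 CPM at C1 and 8.72, 3.76 and 4.50 CPM at C5 with tacedinaline, a log2 change of -6.24 ± 0.23 (edgeR adjusted p = 1.21e-24). It fell late, with 266, 363 and 292 CPM at C3, and was called lower at C3 in 0 chemicals. With panobinostat its change was -0.10 ± 0.16 and with valproic acid -0.36 ± 0.14, neither of which was called.

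HAAO, which converts 3-hydroxyanthranilate on the way to NAD, fell by 1.82 to 5.69 on the log2 scale in the 7 chemicals. With vorinostat it read 136, 165 and 121 CPM at C1 and 2.73, 0.52 and 5.22 CPM at C5, and no C5 library reached a C1 library. KYNU had a second, dimmer probe that was tested in 8 chemicals and lower in 2. AADAT, a kynurenine aminotransferase near the filter, was called in no chemical by edgeR and in 2 by DESeq2. With mocetinostat it held 15, 21 and 15 counts at C1 and 0, 1 and 6 at C5 (log2 change -2.55 ± 0.98, edgeR adjusted p = 0.0599), and without batch 3 the adjusted p was 0.0329.

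Genes of histidine breakdown had low counts. HAL, the first enzyme of the pathway, was lower in 1 chemical, panobinostat. It was lower in 0 chemicals without batch 1, in 2 with the replicate block, and in 3 by DESeq2 or with no filter on low counts. With scriptaid HAL read 15.0, 10.6 and 9.23 CPM at C1 and 1.81, 1.82 and 4.68 CPM at C5 (log2 change -2.09 ± 0.83, edgeR adjusted p = 0.0653, or 0.0117 without batch 3). AMDHD1 was lower with vorinostat alone, from 9, 27 and 21 counts to 0, 2 and 4, and its adjusted p of 0.0261 rose to 0.117 without batch 1 and 0.116 without batch 2. The serine and threonine dehydratase genes were called in no chemical at C5, and 1 of the 2 was called higher with scriptaid at C4. SDSL held 12, 8 and 4 counts at C1 and 3, 6 and 0 at C5 with scriptaid, and the groups overlapped. SDS held 3, 12 and 0 counts at C1 and 15, 32 and 5 at C5 with apicidin, overlapping as well (edgeR adjusted p = 0.139).

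In the methionine, betaine and sarcosine branch, 24 of 34 tests in the 7 chemicals were lower and 0 higher, beside 6.22% to 24.9% of all features lower in single chemicals. These tests repeat the same genes in the same batches and are not independent. MAT1A, which makes the liver's S-adenosylmethionine, held 23, 67 and 66 counts at C1 and 0, 0 and 1 at C5 with vorinostat (at least 8.28-fold lower, edgeR adjusted p = 1.17e-07). At C3 with vorinostat it read 21.2, 10.1 and 19.9 CPM against 13.2, 17.4 and 21.2 CPM at C1, so the groups overlapped there. SARDH, the mitochondrial sarcosine dehydrogenase, was at the floor in 5 chemicals. With scriptaid it held 33, 24 and 45 counts at C1 and 0 in each C5 library, at least 7.79-fold lower. Its fitted median of -5.41 became -2.20 with those groups at their bound.

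GNMT, the enzyme that spends S-adenosylmethionine on glycine, was lower with valproic acid alone by edgeR (in 2 chemicals by DESeq2), from 29, 18 and 28 counts to 0, 1 and 0 (at least 8.21-fold lower, edgeR adjusted p = 0.000733). With mocetinostat it held 9, 9 and 15 counts at C1 and 23, 11 and 21 at C5, a log2 change of 0.92 that was not called. The difference between these chemicals was not tested. BHMT, whose betaine-dependent enzyme is abundant in liver, held 0 to 5 counts in all libraries, while its neighbour BHMT2 was lower in 6 chemicals with log2 changes down to -3.22.

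BHMT2 and DMGDH, the dimethylglycine dehydrogenase gene that was lower in 5 chemicals, start head to head. The 92 bases between both starts, at chr5:79069675-79069766 of RefSeq GRCh38.p14, are shown because both genes share them, on the plus strand with CpG in capitals. They hold 15 CpG.
BHMT2 and DMGDH: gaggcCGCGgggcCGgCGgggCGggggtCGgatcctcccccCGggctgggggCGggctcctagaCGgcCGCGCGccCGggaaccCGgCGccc
With valproic acid the log2 change was -0.57 for BHMT2 and 0.15 for DMGDH, neither of which was called. With panobinostat it was -0.89 for BHMT2 and 0.01 for DMGDH. In panobinostat BHMT2 was called and DMGDH was not, although the difference was not tested.

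Transsulfuration turns homocysteine into cysteine through CBS and then CTH. CBS was lower in 5 chemicals. With scriptaid it read 280.0, 291 and 385 CPM at C1 and 79.2, 72.8 and 60.4 CPM at C5, a log2 change of -2.17 ± 0.30 (edgeR adjusted p = 3.52e-05), and no library of C5 reached C1. The near-identical copy CBSL may share reads with the CBS probe. CTH was lower in 3 chemicals, scriptaid, tacedinaline and vorinostat, by 0.69 to 0.92 on the log2 scale. It was lower in 1 chemical without batch 2, and in 1 when only total counts were used for scaling.

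The aminotransferase genes did not move together. GPT, the cytosolic alanine aminotransferase gene, was lower in 7 chemicals. With mocetinostat it held 85, 91 and 121 counts at C1 and 7, 0 and 7 at C5 (log2 change -4.18 ± 0.67, edgeR adjusted p = 0.000197). GPT2, the mitochondrial isozyme, was higher in 4 chemicals, with a log2 change of 0.92 ± 0.16 in apicidin, 1.48 ± 0.20 in mocetinostat, 2.02 ± 0.49 in scriptaid and 1.00 ± 0.17 in tacedinaline (edgeR adjusted p of 0.000129, 3.5e-05, 0.00425 and 4.4e-06). With valproic acid (0.47, edgeR adjusted p = 0.0207) and vorinostat (0.55, edgeR adjusted p = 0.0111) GPT2 passed the p threshold and missed the fold limit, and with panobinostat and trichostatin A it passed neither.

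The values of GPT2 with mocetinostat were 92.5, 113 and 93.7 CPM at C1, 220.4, 184 and 208 CPM at C3, and 308, 279 and 252 CPM at C5, so its C3 libraries already lay above all C1 libraries. With scriptaid GPT2 read 90.8, 86.8 and 131 CPM at C1 and 315, 316 and 623 CPM at C5, and at C4 it read 79.7, 92.2 and 466 CPM, the last in batch 3. Without batch 2 the call with scriptaid was lost (edgeR adjusted p = 0.0553). GOT1, the cytosolic aspartate aminotransferase gene, was higher with apicidin alone, from 80.9, 79.6 and 78.4 CPM to 115, 125 and 139.9 CPM (log2 change 0.67 ± 0.16, edgeR adjusted p = 0.0026, or 0.107 without batch 3).

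In the branched-chain dehydrogenase complex, the genes of both decarboxylase subunits were called in opposite directions with apicidin and vorinostat. BCKDHA, the alpha subunit gene, was lower in 3 chemicals. With vorinostat it read 47.7, 62.8 and 66.5 CPM at C1 and 29.2, 28.3 and 11.1 CPM at C5 (log2 change -1.39 ± 0.30, edgeR adjusted p = 0.000228). BCKDHB, the beta subunit gene, was higher with apicidin, mocetinostat, panobinostat, valproic acid and vorinostat, by log2 changes of 0.98, 0.74, 0.94, 0.61 and 0.89.

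With vorinostat BCKDHB read 338, 315 and 254 CPM at C1 and 558, 575 and 549 CPM at C5 (edgeR adjusted p = 1.55e-06), and with apicidin 325, 308 and 292 CPM at C1 and 649, 544 and 639 CPM at C5 (edgeR adjusted p = 4.16e-05). The groups were separate in both. The call with valproic acid (edgeR adjusted p = 0.0459) was lost without any 1 of the batches, and that with mocetinostat (edgeR adjusted p = 0.0319) without batch 1 or batch 2. The log2 change of BCKDHB was above 0 in all 8 chemicals. HIBCH, of valine breakdown, was higher with scriptaid alone, from 189.6, 204 and 197 CPM to 353, 362 and 305 CPM (log2 change 0.79 ± 0.24, edgeR adjusted p = 0.0195), and this call was lost without batch 1 (0.17), without batch 2 (0.223) or with no filter (0.0774).

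BCKDHB is printed beside HAO2 and AGXT2 for contrast, with 21 CpG in its 250 upstream bases at chr6:80106421-80106670 on the plus strand of RefSeq GRCh38.p14 (CpG in capitals).
BCKDHB: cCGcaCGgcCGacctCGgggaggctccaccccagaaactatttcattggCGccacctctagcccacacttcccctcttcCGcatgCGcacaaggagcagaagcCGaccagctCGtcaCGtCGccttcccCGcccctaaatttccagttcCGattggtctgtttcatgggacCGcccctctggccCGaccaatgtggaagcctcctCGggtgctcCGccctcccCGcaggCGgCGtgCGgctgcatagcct

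Upstream sequence was found for 33 of the 38 genes, and HGD, GPT2, GPT, TAT and SDSL had no entry in the table used. Of the 33, 14 held under 10 CpG in 250 bases (42.4%, against 46.8% of all 27305 genes with an entry outside chromosome 8). Among the 27 with an entry that were tested in at least 6 chemicals, the 11 with under 10 CpG had a median log2 change of -5.35, and -3.18 once floor groups took their bound. The 16 with 10 or more CpG had a median of -1.07 on either basis. The Pearson correlation of CpG number with the change was 0.62, or 0.58 with the bounds (Spearman 0.57 and 0.55, n = 27 genes that share libraries), a description for which no test was made. The limit of 10 was chosen after the values were seen, and SARDH, with 2 starts, lay exactly on it. TDO2, KYNU, HAL and BCKDHA held under 10 CpG with a smaller fall, while HPD and HAAO held 17 and 30 CpG and fell by medians of 3.47 and 3.26 on the log2 scale.

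**Figure D5:**
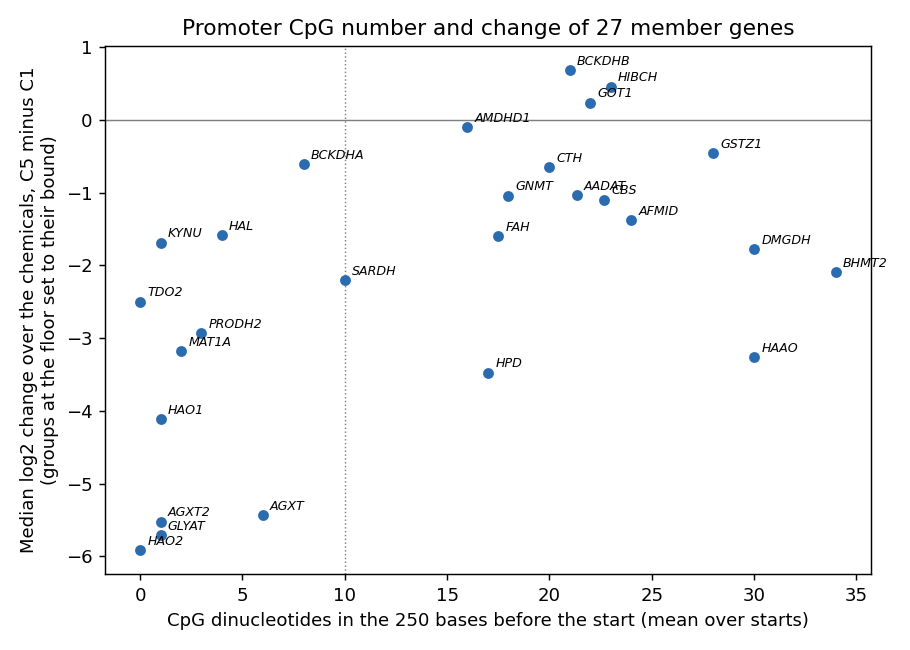
Each point is 1 of 27 genes, with the number of CpG in the 250 bases before its start on the horizontal axis (mean over starts) and its median log2 change at C5 over the chemicals on the vertical axis, with floor groups placed at their bound. HAO2, GLYAT, AGXT2, AGXT and HAO1 lie lowest, with 0 to 6 CpG, and GOT1, HIBCH and BCKDHB, with 21 to 23 CpG, lie above 0.

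Short motifs of liver factors, and the TATA box, were searched on both strands of 40 upstream stretches of the 33 genes. CAAAGT, part of a site of HNF4, was present in 20.0% of them and in 10.3% of all 35116 stretches, with HAO2, AGXT2, HAO1, HAAO, KYNU, KMO, TDO2 and SARDH among the genes. GTTAAT, part of a site of HNF1, was present in 12.5% against 6.23%, TTGCNNAA, as bound by C/EBP factors, in 12.5% against 9.05%, and TATAAA in 15.0% against 10.7%. In the order given, these shares rest on 8, 5, 5 and 6 of the 40 stretches, and the difference from all stretches was not tested. These letters are a description of sequence and not sites shown to be bound.

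Another 57 genes of amino acid breakdown, outside the list of 38, had medians nearer to 0 in the 7 chemicals. Both lists were chosen with earlier results of these data known, and the difference between them was not tested. At C5, 19 of 48 tested were lower and 1 higher with apicidin, 23 of 50 and 1 with mocetinostat, 7 of 50 and 1 with panobinostat, and 18 of 49 and 3 with scriptaid. The counts were 23 of 46 and 6 with tacedinaline, 0 of 50 and 0 with trichostatin A, 6 of 49 and 0 with valproic acid, and 18 of 45 and 6 with vorinostat. In the 7 chemicals, 6.22% (valproic acid) to 24.9% (vorinostat) of all features were lower at C5, and 4.84% to 22.7% higher. The share lower was 14% with panobinostat beside 9.46% of all features, and 12.2% with valproic acid beside 6.22%. Their median log2 change lay between -0.89 and 0.05. Of them ACMSD, CDO1, DDC, HNMT and PIPOX were lower in the 7 chemicals. PIPOX oxidises sarcosine and pipecolate, and CDO1 opens cysteine oxidation. GCDH, of lysine and tryptophan breakdown, was higher in 4 chemicals (mocetinostat, scriptaid, tacedinaline and vorinostat), with a log2 change of 1.70 ± 0.26 in scriptaid.

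Of 9 amino acid synthesis genes, 7 or 8 were tested in each chemical, and 0 to 2 were lower and 0 to 2 higher at C5. The asparagine synthetase gene ASNS was higher in 4 chemicals and the glutamine synthetase gene GLUL, which marks perivenous hepatocytes, was lower in 6. Of 14 amino acid transporter genes, 9 to 12 were tested in each of the 7 chemicals and 2 to 6 were lower at C5. Over all features, 6.22% (valproic acid) to 24.9% (vorinostat) were lower there, and 4.84% to 22.7% were higher. SLC38A3 and SLC43A1 were lower in all 7 chemicals. With trichostatin A 0 synthesis and 0 transporter genes were called by edgeR.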

How the data were processed

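Whole-transcriptome TempO-Seq counts of 118 libraries in 40 groups were analysed. The deposited table holds raw counts per probe, and per the labels lysates were used without RNA extraction. The submitters' processing notes name bcl2fastq 2.20.422, fastp 0.23.2, STAR 2.7.10b and DESeq2 1.38.0, and the genome build and the role of each tool are not given in the sources used here. Probes rather than whole transcripts were counted, so levels are not comparable between genes.

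In R 4.3.3, each chemical was fitted alone with edgeR 4.0.16 (filterByExpr, trimmed mean of M values, quasi-likelihood test), with the concentration as group, and C2 to C5 were each set against C1, which these comparisons share. Calls needed a Benjamini-Hochberg adjusted p under 0.05 over all features and a fold change of at least 1.5. The value after ± beside a log2 change is an SE back-calculated from that test. It is the absolute change divided by the square root of the quasi-likelihood F statistic. It rests on the dispersion fitted over all concentrations of the chemical, and is not a spread over the libraries of the groups compared. A group with at most 3 counts in every library was at the floor. A gene with several probes was represented by the one with most counts. Totals had a median of 3702007 counts, and bounds cover counting error only. The edgeR p-values set a difference between concentrations against the spread fitted over all concentrations, with no batch term in the main fit. The libraries came from 3 batches of 1 cell line.

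Full values were given for the gene with the largest absolute median change of each branch, for first or committed steps, for genes higher in at least 2 chemicals and for genes tested in at least 6 chemicals and called in at most 1. Other genes and values were chosen after their values were seen. The 38 genes and all lists were chosen with earlier results of these data known.

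Per the labels the replicate number marks a HepaRG batch, which pairs libraries across groups. The median correlation of their deviations from the group mean was 0.0299 over 232 pairs of the same batch and -0.0122 over 464 pairs of different batches. Alternatives were the replicate block, other scalings, no filter, DESeq2 1.42.0, summed probes, 1 fit over all libraries and leaving out each replicate. In data simulated for apicidin C5, 50 of 50 genes with a log2 change of -3 and 45 of 50 with -1.5 were called, and 5 of 12044 unchanged ones. The changed genes were drawn only from features with a mean count above a set limit, and every gene had the same dispersion. The simulation therefore gives no sensitivity for genes near the filter, and its spread is not that of the data. Upstream sequences were from RefSeq GRCh38.p14. For valproic acid the dose labels and the protocol give different scales, so its unit is not settled. A SEC13 probe row without values in many libraries was left out.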

Additional observations from a re-analysis of the deposited data

How the results depend on the processing

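Of the counts of called genes at C5 and C3, 145 values under the alternatives equalled the main count or stayed within 1.5 times it, and 17 did not. Comparisons with 0 calls in both fits are among the 145. For single genes, 274 values kept the status of the main fit, 18 lost a call, 7 gained one and 0 reversed in sign. The 274 include genes that were not called in either fit. With no filter on low counts, trichostatin A gave 1 call at C5 and 3 at C3, and scriptaid gave 8 at C3. With all libraries in 1 fit, C3 gave 21 calls with mocetinostat, 12 with scriptaid and 1 with valproic acid. Leaving out 1 replicate gave 0 to 5 calls with trichostatin A at C5 (5 without replicate 3, 3 without C1 replicate 3) and 10 to 15 with valproic acid at C5. At C3 it gave 9 to 15 with apicidin, 6 to 10 with mocetinostat, 0 to 9 with scriptaid, 1 to 5 with valproic acid and 5 to 7 with vorinostat. The cause of these moves was not tested, and the share of all features called under the alternatives was not counted. GSTZ1 with vorinostat gave no value without replicate 2, since the probe did not pass the filter.

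With the replicate block, C5 gave 23 calls with apicidin, 21 with mocetinostat, 17 with panobinostat, 23 with scriptaid, 23 with tacedinaline, 0 with trichostatin A, 17 with valproic acid and 26 with vorinostat. It raised the number of chemicals in which HAL was lower from 1 to 2 and FAH from 5 to 7. The effect of depth on genes near the filter was not tested.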
